A study of Danio rerio with 5 samples.

Results

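Microtubules are hollow polymers of alpha and beta tubulin that form the mitotic spindle, the tracks of intracellular transport and the core of cilia. Gamma tubulin complexes start them, a set of cofactors folds the tubulin dimers, kinesins mostly walk towards the plus end and dynein walks towards the minus end. Ovary, brain and ciliated epithelia each use different tubulin genes and motors, so a profile of fish RNA can mix several of these programmes.

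Transcripts of this machinery were followed in young adult zebrafish of the wild-type AB line. Fish were held for 24 h without food in the vehicle DMSO, in benzene, in toluene, in formaldehyde, or in a mixture of these 3 compounds, the BTF mix, all prepared in DMSO. The 5 conditions were profiled on a single Affymetrix array each, which leaves every difference without a replicate and allows no test. The labels give hemaphrodite as the gender of all fish; doses, tissue and fish per array are not stated in them.

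Members were chosen by gene symbol in the platform annotation: the alpha, beta and gamma tubulins with the gamma tubulin complex proteins, the kinesins, the subunits of cytoplasmic and axonemal dynein that carry dync, dynl, dnai or dnal names, the tubulin folding cofactors, svbp and the tektins. Axonemal dynein heavy chains carry other names and were not members. This gave 54 genes of the 8793 on the array with exactly 1 symbol, covered by 74 probe sets of 10795. They were 8 alpha tubulins, 5 beta tubulins, 3 genes of gamma tubulin and its complex, 4 cofactors with svbp in a class of 5, 10 mitotic kinesins, 7 other kinesins, 11 cytoplasmic dynein genes and 5 genes of axonemal dynein and tektins. For a gene with several probe sets, the one of highest mean over the 5 arrays was taken. A level below is the deposited log2 value of that probe set, and a difference is the exposed array minus the DMSO array on the log2 scale, so that 1 is 2-fold. Levels of different genes were not compared with each other, because probe sets bind with different strength.

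The BTF mix array stood apart from the other 4. Across 15502 probe sets its correlation with them was 0.692 to 0.739, against 0.979 to 0.992 among the DMSO, benzene, toluene and formaldehyde arrays. All 8 measured genes of a 14-gene oocyte list were at least 2-fold lower with the mix than with DMSO, where 27.8% of all genes were. The median level of these 8 was 13.14 with DMSO, 13.30 with benzene, 13.22 with toluene, 13.47 with formaldehyde and 6.13 with the mix. In bulk RNA, fewer cells of a type and less RNA per cell cannot be told apart. The part that this difference in oocyte transcripts has in the mix values below was not tested.

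On the 4 arrays without the mix, most members kept close levels, as did most genes on the array. The range over these arrays was under 0.5 for 44 of 54 members and for 6545 of all 8793 genes. The median range was 0.30 for members and 0.31 over all genes. Of the 54, dnai2a and svbp alone spanned at least 2-fold there, which is 3.70% of members against 7.20% of all genes. On the mix array 49 members lay outside the range of the other arrays, 28 below all 4 and 21 above all 4. Over all genes 44.3% lay below and 44.1% above. At least 2-fold below each of the 4 were 16 members, 29.6% against 23.5% of all genes, and at least 2-fold above each were 6, 11.1% against 17.6%.

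**Figure D1:**
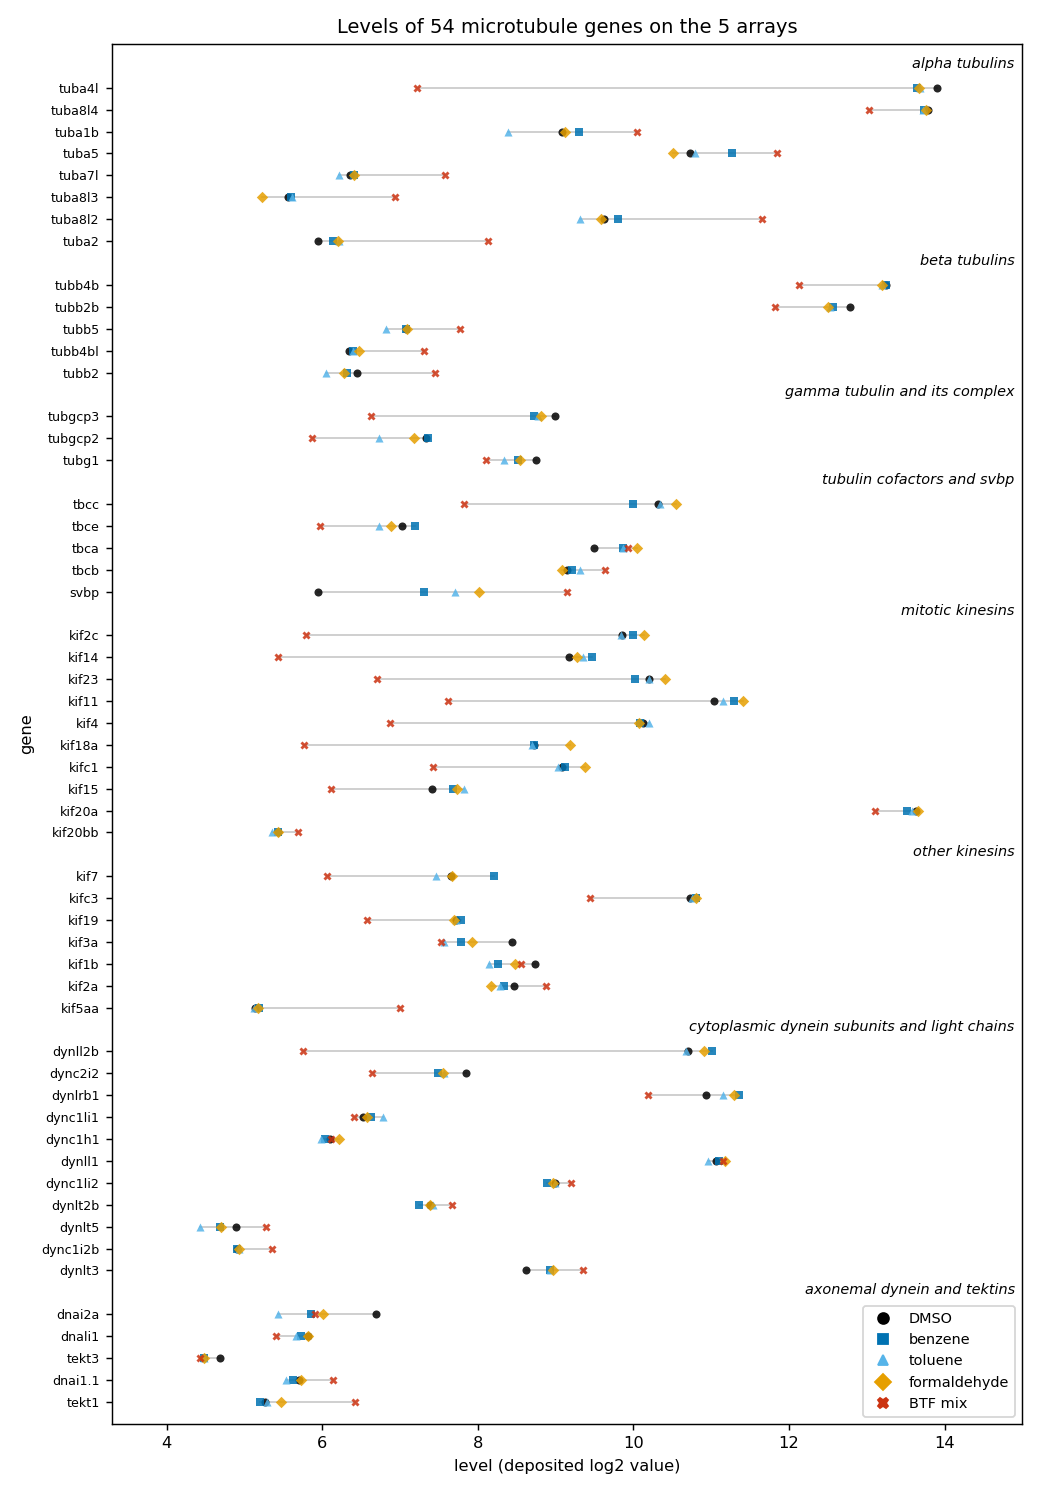
Levels of the 54 genes on each array, grouped by class; the x axis is the deposited log2 value and each row is 1 gene, with a grey line from its lowest to its highest array. The BTF mix marker sits far from a tight group of 4 for tuba4l (7.22 against 13.64 to 13.90) and dynll2b (5.75 against 10.67 to 11.01), while svbp is spread over all arrays.

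With each single compound the group as a whole lay near its DMSO levels. The median difference of the 54 genes was 0.002 with benzene, -0.05 with toluene and 0.01 with formaldehyde, beside medians of -0.006, -0.01 and 0.000 over all genes. With benzene 1 member was at least 2-fold higher, 1.85% of members against 1.65% of all genes, and 0 were at least 2-fold lower, against 0.842%. Toluene had 1 member at least 2-fold higher, where 1.74% of all genes were, and 1 at least 2-fold lower, where 0.535% were. Formaldehyde had 1 member at least 2-fold higher, against 1.1% of all genes, and 0 at least 2-fold lower, against 1.94%. These shares lie near those of the whole array, and the 3 comparisons share the DMSO array.

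The member that was at least 2-fold higher with every compound was svbp. Above DMSO by any amount on all 3 single-compound arrays were 12 members, 22.2% against 22.7% of all genes. It encodes the small vasohibin-binding protein, which in mammals partners the vasohibins, the enzymes that cut the last tyrosine from alpha tubulin. Its level was 5.95 with DMSO, 7.30 with benzene, 7.71 with toluene, 8.02 with formaldehyde and 9.15 with the mix. The DMSO array was thus the lowest and the mix array the highest. The differences from DMSO were 1.36, 1.76, 2.07 and 3.20, the last a 9.20-fold difference. At least 2-fold above DMSO on each of the 3 single-compound arrays were 17 of 8793 genes, or 0.193%. Since 1 DMSO level enters all 3 differences, they are not independent of each other. Set against the mean of the other arrays without the mix, svbp differed by 0.08 with benzene, 0.62 with toluene and 1.03 with formaldehyde, so the first and second of these did not reach 2-fold. The gene has 1 probe set.

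The member that was at least 2-fold lower was dnai2a, an intermediate chain of the outer dynein arms that drive the beat of motile cilia. The levels were 6.69 with DMSO, 5.85 with benzene, 5.43 with toluene, 6.01 with formaldehyde and 5.91 with the mix. DMSO was the highest array, and the mix lay inside the range of the others. The difference was -1.25 with toluene, and -0.83 and -0.67 with benzene and formaldehyde. Against the mean of the other arrays without the mix, toluene differed by -0.75. All 5 levels lay under the median of all values, 7.02.

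Below that threshold, a few motor genes had the DMSO array on top. The kinesin-2 subunit kif3a, which pulls intraflagellar trains to the tip of the cilium, had levels of 8.43 with DMSO, 7.78 with benzene, 7.57 with toluene, 7.93 with formaldehyde and 7.53 with the mix. The axonal transport kinesin kif1b had 8.74, 8.25, 8.15, 8.47 and 8.55 in the same order. DMSO was strictly the highest of the 4 arrays for 15 members, 27.8%, against 29.4% of all genes, about as common among members as elsewhere. On the other side tbca, the cofactor that holds beta tubulin before dimer assembly, had 9.50 with DMSO and 9.87, 9.87, 10.04 and 9.93 on the exposed arrays.

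**Figure D2:**
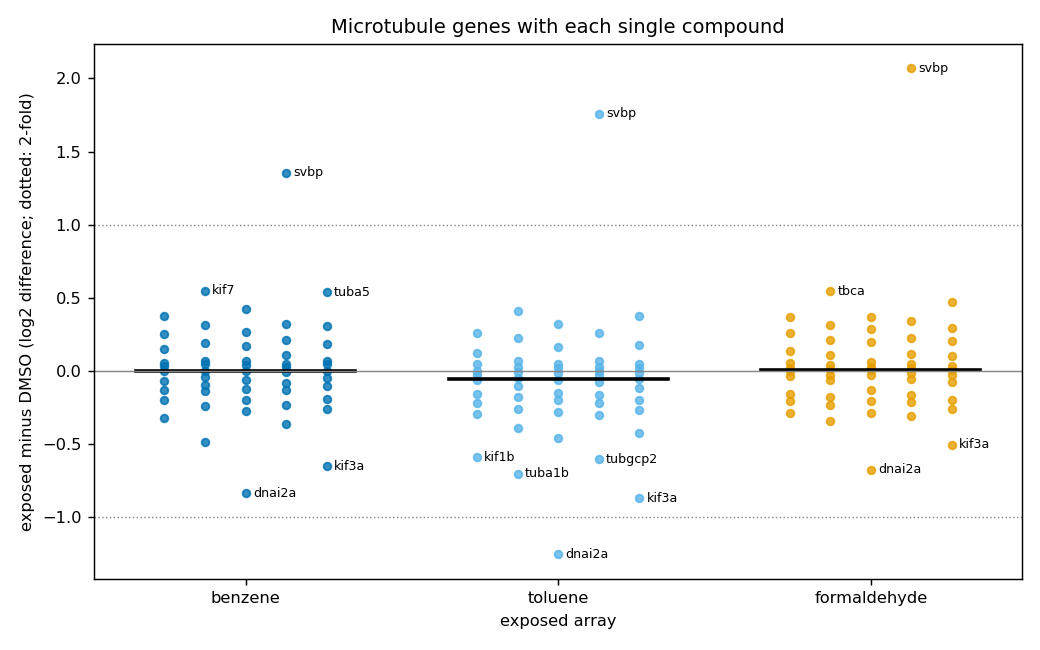
Differences of the 54 genes from DMSO with each single compound; the y axis is the log2 difference, each point is 1 gene (spread sideways for legibility), the black bar is the median and genes at least 0.5 from 0 are named. Medians lie at 0.002, -0.05 and 0.01, with svbp above the upper dotted 2-fold line on all 3 arrays and dnai2a below the lower one with toluene.

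Toluene gave the lowest of the 4 levels more often than the other arrays did. It was strictly lowest for 24 of 54 members, or 44.4%, against 23.5% of all genes, while DMSO was for 12 members (22.7% of all genes), benzene for 9 (23.2%) and formaldehyde for 8 (25.7%). The share with toluene was 40.7% after quantile normalization and 33.3% after cyclic loess, beside 24.8% and 18.3% of all genes. These are ranks of single arrays, and 44 of the 54 genes spanned under 0.5 on them. Alpha tubulins were 4 of the 24: tuba1b, tuba7l, tuba8l2 and tuba8l4. Mitotic kinesins, other kinesins and cytoplasmic dynein genes were 4 each. The axonemal class gave 3, beta tubulins and the gamma tubulin class 2 each, and the cofactor class 1.

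Toluene and benzene, which differ by a methyl group, were set side by side without doses. No member was at least 2-fold apart between them, in either direction, where 0.955% of all genes were higher with toluene and 0.421% lower. The median of toluene minus benzene was -0.05, against 0.000 over all genes. Lower with toluene were 34 members and higher were 17, where 4234 and 4042 of 8793 genes were. Of the 17 members with several probe sets, 7 had all sets on the same side of 0 for this gap. The greatest gap among members was that of the alpha tubulin tuba1b, with levels of 9.09 with DMSO, 9.30 with benzene, 8.38 with toluene, 9.13 with formaldehyde and 10.05 with the mix, so toluene was 0.91 under benzene. The second tuba1b probe set, whose identifier names the same target as the first, also had its lowest level with toluene, 0.65 under benzene. However, 3 probe sets that bind tuba1b together with tuba1a or tuba1c, and so were no members, did not have a gap of this size. Their levels were 5.12, 7.32 and 7.82 with toluene and 5.17, 7.31 and 7.71 with benzene. With toluene they lay 0.07, 0.22 and 0.39 above DMSO. Smaller gaps were those of kif7 at -0.75, tubgcp2 at -0.63, tuba8l2 at -0.48, tuba5 and tbce at -0.47 each, all lower with toluene, and svbp at 0.40, higher. With 1 array each, no interval can be put on these gaps.

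With the BTF mix, 27 members were at least 2-fold from DMSO, 50.0% against 48.4% of all genes. Lower were 19 of 54, 35.2% against 27.8% of all genes, and higher were 8, 14.8% against 20.6%. The median difference of the members was -0.34, against -0.01 over all genes. The classes lay far apart within that: mitotic kinesins were mostly lower, and most alpha tubulins were higher. Beside these counts, 27 of 31 genes of a DNA replication and mitosis list lay 2-fold or more below DMSO with the mix and 1 lay as far above it. Of a neuron list 12 of 15 genes, and of a skeletal muscle list 17 of 18, lay 2-fold or more above DMSO and 0 of either as far below. The neuron list includes the myelin gene mbpa, at 2.57. The median level of the neuron list was 6.71 to 6.80 on the other 4 arrays and 8.33 with the mix. That of the muscle list was 11.24 with DMSO, 11.52 with benzene, 11.72 with toluene, 12.65 with formaldehyde and 13.59 with the mix. The part of these lists' differences in the tubulin and kinesin values was not tested.

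**Figure D3:**
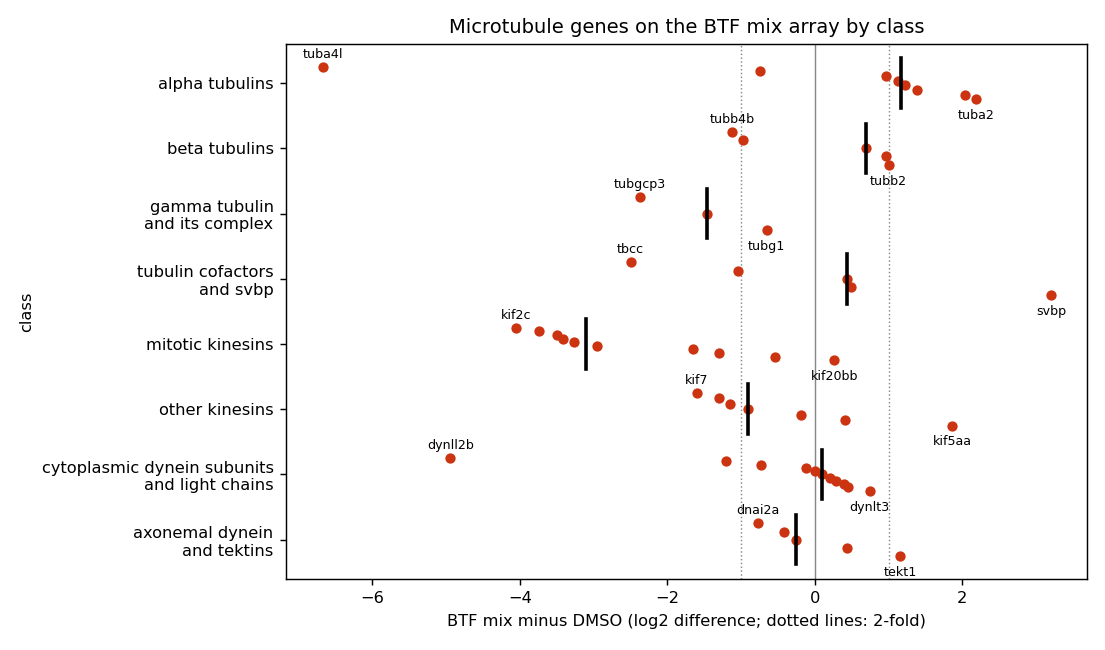
Differences of the 54 genes with the BTF mix against DMSO by class; the x axis is the log2 difference, each point is 1 gene, the black bar is the class median and the genes at each end are named. Mitotic kinesins have a median of -3.11 and alpha tubulins one of 1.17, with tuba4l alone at -6.68.

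Alpha tubulins, the partner of beta tubulin in every dimer, went in opposite directions with the mix. Of 8 genes, 5 lay 2-fold or more above DMSO, 62.5% against 20.6% of all genes, and the class median was 1.17. As far below it lay 1, 12.5% against 27.8%. That 1 gene was tuba4l, whose levels were 13.90 with DMSO, 13.64 with benzene, 13.68 with toluene, 13.67 with formaldehyde and 7.22 with the mix. The first 4 arrays lay within 0.26 of each other and the mix lay 6.68 under DMSO, a 102-fold difference and the largest of any member on any array. It has 1 probe set. The gene tuba8l4, whose levels were 13.72 to 13.78 on the other 4 arrays, had 13.03 with the mix, a difference of -0.75.

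The other 6 alpha tubulins were higher with the mix than on every other array, as were 44.1% of all genes. The tuba8l2 levels were 9.62 with DMSO, 9.80 with benzene, 9.32 with toluene, 9.59 with formaldehyde and 11.65 with the mix, a difference of 2.03. For tuba2 they were 5.95, 6.14, 6.21, 6.21 and 8.14 in the same order, a difference of 2.18. The other 2 tuba2 sets differed by 0.40 and 0.36, and the mean of its sets by 0.98, under 2-fold. On the represented sets neither gene's mix level overlapped the others. The differences of tuba8l3, tuba7l and tuba5 were 1.38, 1.22 and 1.12, and that of tuba1b was 0.96. Levels of tuba8l3 stayed under the median of all values on every array. On the benzene array tuba5 had 11.26, above its 10.51 to 10.79 on DMSO, toluene and formaldehyde. Tubulin genes have similar sequences, and transcripts of one may be read by the probes of another. After cyclic loess normalization 4 of the 8 were at least 2-fold higher, without tuba7l and tuba8l3 and with tuba1b, and 2 were at least 2-fold lower.

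Beta tubulins split in the same manner but within narrower limits. The tubb4b levels were 13.24 with DMSO, 13.24 with benzene, 13.19 with toluene, 13.19 with formaldehyde and 12.12 with the mix, and those of tubb2b were 12.79, 12.56, 12.53, 12.50 and 11.82. The probe sets of both genes share an identifier stem, and those of tubb4b end in _x_at and _a_at. The alternative without sets of these suffixes leaves tubb4b out. Both genes were lowest with the mix, by -1.12 and -0.97, and only tubb4b passed 2-fold, which it did not after quantile normalization (-0.91). In contrast tubb2, tubb4bl and tubb5 were highest with the mix: tubb2 had 6.45 with DMSO and 7.45 with the mix, just under 2-fold, and the differences of tubb4bl and tubb5 were 0.96 and 0.70. After quantile normalization tubb2 (1.16) and tubb4bl (1.07) passed 2-fold and no beta tubulin lay that far below DMSO. After cyclic loess 2 lay that far below, with tubb2b at -1.04, and 0 above. In the deposited values 27.8% of all genes lay that far below DMSO and 20.6% above. As far below each of the 4 other arrays, a stricter count, lay 21.1% after quantile normalization and 16.9% after cyclic loess. As far above each lay 18.8% and 18.1%.

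Gamma tubulin and the complex that caps the minus end were lower with the mix in the deposited values, and after cyclic loess normalization tubg1 was at 0.02 and the other 2 genes stayed lower. The ring protein tubgcp3 had levels of 8.99 with DMSO, 8.72 with benzene, 8.77 with toluene, 8.81 with formaldehyde and 6.62 with the mix, a difference of -2.37, and its second probe set differed by -1.66. Its partner tubgcp2 had 7.33, 7.36, 6.73, 7.18 and 5.87, a difference of -1.46. Gamma tubulin itself, tubg1, had 8.75, 8.51, 8.33, 8.55 and 8.10. The mix was the lowest array for all 3 genes, as it was for 44.3% of all genes, but the tubg1 difference of -0.65 did not reach 2-fold. A probe set shared by tubgcp5 and cyfip1, and so not a member, differed by -1.47.

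The folding cofactors did not share a direction with the mix. The tbcc product, which triggers release of the finished dimer, had levels of 10.32 with DMSO, 10.00 with benzene, 10.34 with toluene, 10.55 with formaldehyde and 7.82 with the mix, a difference of -2.50. The alpha tubulin cofactor tbce had 7.02, 7.20, 6.73, 6.89 and 5.98, a difference of -1.04 that was -0.98 against the mean of the other 4 arrays. The other alpha tubulin cofactor tbcb had its highest level with the mix, 9.64 against 9.08 to 9.32, and tbca lay inside the range of the others at 9.93. In the deposited values 1 of the 5 genes of this class lay 2-fold or more above DMSO and 2 as far below, where 20.6% and 27.8% of all genes did. After cyclic loess normalization tbcb (1.29) and tbca (1.20) passed 2-fold, and 3 of the 5 genes lay that far above DMSO. After it 18.1% of all genes lay 2-fold or more above each of the 4 other arrays, a stricter count.

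Mitotic kinesins were the class with the largest share at least 2-fold lower with the mix. The classes were chosen with earlier results of these data known, so this ranking only describes the values. Of 10 genes, 8 lay 2-fold or more below DMSO and 0 as far above it, 80.0% lower against 27.8% of all genes, and the class median was -3.11. The class median was -1.81 with the mean of all probe sets of a gene and -2.42 after cyclic loess, and the count was 8 in both, with kif20a in place of kif15 in the first and of kifc1 in the second. With benzene, toluene and formaldehyde 0 of the 10 were at least 2-fold from DMSO, and their medians were 0.02, -0.01 and 0.25. With formaldehyde 9 of 10 lay above 0 on the represented sets, by at most 0.47, where 4183 of 8793 genes did. The kif23 sets lay on both sides of 0 there, as did the kif2c sets. Of the 17 members with several probe sets, 6 had all sets on the same side of 0 with formaldehyde.

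The spindle motor kif11, which slides antiparallel microtubules to push the poles apart, had levels of 11.03 with DMSO, 11.29 with benzene, 11.16 with toluene, 11.40 with formaldehyde and 7.61 with the mix, 10.7-fold under DMSO. The central spindle kinesin kif23, needed for cytokinesis, had 10.21, 10.02, 10.19, 10.41 and 6.71. The depolymerising kinesin kif2c, which corrects wrong attachments at kinetochores, had 9.85, 10.00, 9.84, 10.14 and 5.79, a difference of -4.06. In each the first 4 arrays formed a tight group and the mix lay at least 3.31 under the lowest of them.

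In another 5 mitotic kinesins the mix was again the lowest array, as it was for 44.3% of all genes. The cytokinesis kinesin kif14 had 9.17 with DMSO and 5.43 with the mix, a difference of -3.74. The chromosome arm motor kif4 had 10.13 and 6.87, and kif18a, which damps chromosome movement on the spindle, had 8.72 and 5.77. The spindle pole focusing motor kifc1 had 9.08 and 7.42, and kif15, which can stand in for kif11, had 7.41 and 6.11. The remaining 2 did not reach 2-fold: kif20a, which acts in cytokinesis, had 13.64 and 13.10, and kif20bb had 5.43 and 5.69, under the median of all values on every array.

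Several of these genes had more than 1 probe set, and these did not always give the same size. The kif2c sets differed by -4.06, -1.68 and -0.15 and the kif4 sets by -3.26, -0.35 and -0.27. For both genes the sets with the smaller differences were those with the lower levels, 5.45 to 6.42 with DMSO. The kif23 sets differed by -3.50 and -2.96 and the kif15 sets by -1.30 and -0.44. For kif20a the order was the reverse, since the chosen set differed by -0.54 and the other by -1.79. Over the 17 members with several probe sets, 15 had all sets on the same side of 0 with the mix, and the median gap between a gene's sets was 0.54. That gap was 0.15, 0.16 and 0.16 with benzene, toluene and formaldehyde.

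**Figure D4:**
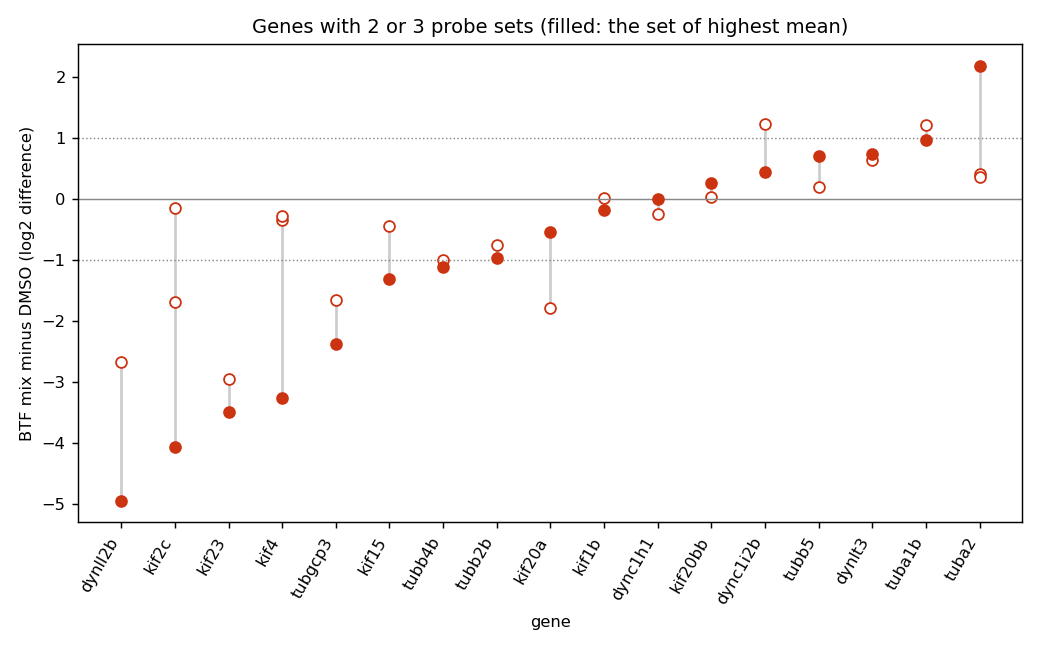
BTF mix minus DMSO for every probe set of the 17 genes with 2 or 3 probe sets; the y axis is the log2 difference, filled points are the sets of highest mean that represent the gene and open points the others. The sets of kif2c and kif4 are spread over -4.06 to -0.15 and -3.26 to -0.27, and those of tubb4b and tuba1b lie close together.

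Among the 7 other kinesins, 3 lay 2-fold or more below DMSO with the mix and 1 lay as far above it, where 27.8% and 20.6% of all genes did. After cyclic loess normalization 1 lay that far below, without kif19 (just under 2-fold) and kifc3 (-0.71), and 2 that far above, with kif2a at 1.07. The higher one was kif5aa, a kinesin-1 heavy chain of the family that moves cargo along axons, with levels of 5.14 with DMSO, 5.19 with benzene, 5.13 with toluene, 5.17 with formaldehyde and 7.003 with the mix. The first 4 arrays lay within 0.06 of each other and the mix was 1.87 above DMSO. Levels of kif5aa stayed under the median of all values on every array. The Hedgehog pathway kinesin kif7 had 7.66, 8.21, 7.46, 7.67 and 6.06, highest with benzene and lowest with the mix. The minus-end directed kifc3 had 10.73, 10.80, 10.76, 10.80 and 9.44, a difference of -1.30. The fourth, kif19, which in mice limits the length of motile cilia, had 7.70 to 7.79 on the other arrays and 6.57 with the mix. The differences of kif3a, kif1b and kif2a, a depolymerising kinesin, were -0.90, -0.19 and 0.41.

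Cytoplasmic dynein was mostly within 2-fold of DMSO with the mix, with a pair of exceptions. Of 11 genes, 2 lay 2-fold or more below it, 18.2% against 27.8% of all genes. As far above lay 0, against 20.6%, and the class median was 0.10. The LC8-type light chain dynll2b had levels of 10.70 with DMSO, 11.01 with benzene, 10.67 with toluene, 10.91 with formaldehyde and 5.75 with the mix, a log2 difference of -4.94 on the represented set and -2.67 on the other set. The mix level lies under the median of all values, and detection calls were not used here. The LC8-type gene dynll1 had 11.06, 11.11, 10.96, 11.17 and 11.16, within 0.22 over all 5 arrays. The 2 genes of this light chain type thus had different patterns. The second gene at least 2-fold lower was dync2i2, an intermediate chain of the dynein that returns intraflagellar trains from the cilium tip, with 7.84, 7.48, 7.56, 7.55 and 6.63; against the mean of the other 4 arrays its difference was -0.98.

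The core subunits of the cargo dynein lay within 2-fold of DMSO with the mix on the represented probe sets. The heavy chain dync1h1, the motor itself, had 6.10 with DMSO, 6.03 with benzene, 5.99 with toluene, 6.22 with formaldehyde and 6.11 with the mix. The light intermediate chains dync1li1 and dync1li2 differed by -0.11 and 0.20 with the mix, and the intermediate chain dync1i2b by 0.45, though its second set differed by 1.23. Levels of dync1h1, dync1li1 and dync1i2b lay under the median of all values on every array. The light chains dynlrb1, dynlt2b, dynlt3 and dynlt5 differed by -0.74, 0.28, 0.74 and 0.39, and that of dynlt3 passed 2-fold after quantile (1.09) and cyclic loess (1.53) normalization. A list of dynein regulators and dynactin also held the kinesin light chains klc1b and klc4, at 0.86 and 0.40 with the mix. Of its 11 measured genes, 5 lay 2-fold or more below DMSO with the mix. This was 45.5% against 27.8% of all genes, and 1 lay as far above, 9.09% against 20.6%. The lower ones were led by pafah1b1a (Lis1) at -2.08, pafah1b1b at -1.64 and nde1 at -1.53, and the higher one was dctn2 at 1.29.

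Among the 5 genes of axonemal dynein and tektins, 1 lay 2-fold or more above DMSO with the mix and 0 as far below. Over all genes the shares were 20.6% and 27.8%. The class count depended on the normalization. After quantile normalization 0 were that far above and 1 that far below (dnai2a at -1.03), and after cyclic loess 0 above and 2 below (dnai2a at -1.37 and dnali1 at -1.01). The tektin tekt1, a filament protein inside the doublet microtubules of cilia and sperm tails, had 5.26 with DMSO, 5.20 with benzene, 5.29 with toluene, 5.47 with formaldehyde and 6.42 with the mix. The mix was 1.16 above DMSO and the other arrays lay close together, but after quantile normalization the difference was 0.98. The outer arm chain dnai1.1, the inner arm light intermediate chain dnali1 and tekt3 differed by 0.43, -0.42 and -0.26. Every one of the 5 stayed under the median of all values on all arrays. Of 18 other motile cilia genes, 4 lay 2-fold or more above DMSO with the mix and 3 as far below, 22.2% and 16.7%. The list median was 0.19, with mlf1 at 2.50, tppp3 at 1.84, ccdc39 at 1.55 and cfap298 at -1.56. Of 15 testis and sperm genes, 2 lay 2-fold or more above DMSO and 1 as far below, 13.3% and 6.67%. The list median was 0.35, with spag1a at 3.04, the gonadal support cell factor gsdf at 1.35 and odf3l2a at -2.16. With the single compounds cimap1b, of the same list, differed from DMSO by -1.38 with benzene, -1.97 with toluene and -1.46 with formaldehyde.

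Genes that bind, cut or modify microtubules, and those of intraflagellar transport, also lay on both sides of DMSO with the mix. Of 25 binding, severing and modifying genes, 6 lay 2-fold or more above DMSO and 9 as far below, and the list median was -0.48. The lowest were the augmin subunits haus6 at -4.87 and haus4 at -3.04, which branch spindle microtubules, and the tubulin glutamylase family gene ttll4 at -2.85. The highest was map1lc3a at 2.36, a light chain relative of the microtubule proteins that serves autophagy. Of 18 intraflagellar transport and basal body genes, 3 lay 2-fold or more below DMSO, 16.7% against 27.8% of all genes. As far above lay 1, 5.56% against 20.6%, and the list median was -0.44. Lower were the transition zone genes tmem67 at -2.38 and mks1 at -1.55 and the BBSome subunit bbs7 at -1.73. Higher was ift46 at 1.09.

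**Figure D5:**
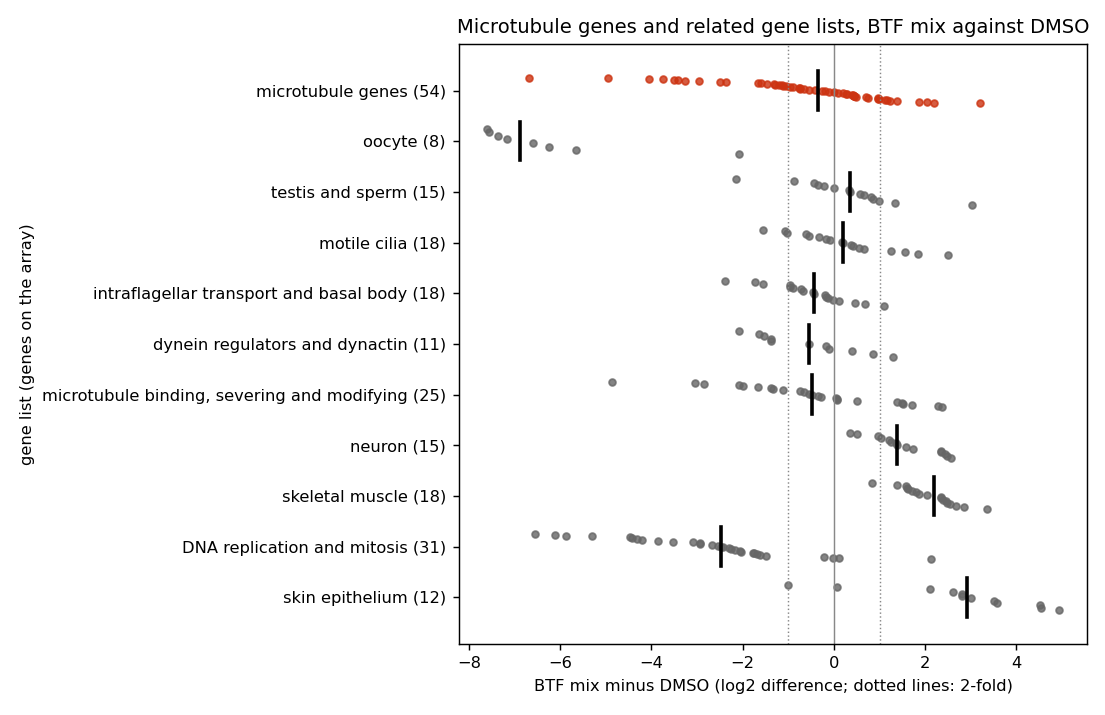
BTF mix minus DMSO for the 54 microtubule genes (red) and 10 related gene lists (grey), with the number of measured genes in brackets; the x axis is the log2 difference, points are genes and black bars medians. The microtubule genes span -6.68 to 3.20. Their median of -0.34 lies between that of the oocyte list, -6.88, and that of the skin epithelium list, 2.91.

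On each single-compound array, every list around the microtubule genes had fewer genes at least 2-fold from DMSO than with the mix, as had the whole array. Of all genes 48.4% lay that far from DMSO with the mix. With a single compound at most 1.74% lay that far above and at most 1.94% below. With benzene, toluene and formaldehyde 0 of 31 replication and mitosis genes, 0 of 15 genes of the neuron list and 0 of 8 oocyte genes were at least 2-fold from DMSO. Of 18 motile cilia genes, 1 was at least 2-fold lower with benzene, enkur at -1.88, and 0 with toluene or formaldehyde. Of 15 testis and sperm genes, 1 was at least 2-fold lower with each compound, cimap1b. Of the 25 binding, severing and modifying genes, hdac6, the tubulin deacetylase, was 1.34 and the spindle pole gene numa1 1.14 above DMSO with toluene, and haus4 1.096 above it with formaldehyde. With the single compounds skin epithelium genes had the largest shares among the 10 lists, which were chosen with earlier results of these data known. At least 2-fold higher were 9 of 12 with benzene and 7 with toluene, against 1.65% and 1.74% of all genes. With the mix 10 were that far above DMSO, against 20.6% of all genes, and epcam was that far below at -1.01. With formaldehyde 7 of the 12 were at least 2-fold lower, against 1.94% of all genes. The skeletal muscle list had 7 of 18 at least 2-fold higher with formaldehyde and 1 with toluene, against 1.1% and 1.74% of all genes. The part of these skin and muscle differences in the svbp values was not tested.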

How the data were processed

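Expression in exposed and vehicle fish was read on 5 Affymetrix arrays grouped by their labelled treatment. The values deposited by the authors are log2 probe set summaries. Affymetrix Expression Console 1.1, MAS5 and RMA are named in the submitters' processing notes without their roles. The log base was taken from the range of 3.15 to 15.04. RMA can compress differences and gives no detection calls.

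Before counting, 115 control probe sets were left out. Of the other 15502, 10795 had 1 gene symbol in the platform annotation, 135 several and 4572 none listed; 10711 matched NCBI RefSeq's gene table (GRCz12tu) by Entrez identifier, and no member's symbol differed there. No genome coordinates or sequences were used. The members, the 10 related lists and the classes were chosen with earlier results of these data known. Differences of at least 1 were counted, with no level filter. Without replicates no test, SD or p-value exists, and the number of arrays limits the precision.

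The rule for named genes took, per class, the highest and lowest mean and all members 2-fold apart with a single compound. It also took up to 5 each way with the mix, and the 3 steadiest. The other members are named for completeness. From the lists, up to 4 genes each with large differences are named, plus hdac6, numa1, mks1, haus4, enkur, klc1b, klc4 and epcam. These were not always the largest. With the mix spdl1 at -1.39 was passed over for dctn2 at 1.29. For toluene minus benzene spata18 was at 1.71 and is not named in the results, while gsdf at 1.35 with the mix is. Alternatives were quantile and cyclic loess normalization (limma 3.58.1), a level filter at 7.02 on any array, other probe set choices and another reference. The counting was tested on simulated data.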

Additional observations from a re-analysis of the deposited data

How the results depend on the processing

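No paired analysis was possible because each condition has a single array. No alternative turned the direction of a member at least 2-fold apart. For the counts with each single compound, normalization and the choice of probe sets moved none of those at 1 or 0. Against the mean of the other arrays without the mix, the count of members at least 2-fold higher was 0 with benzene and 0 with toluene, and that of members at least 2-fold lower with toluene was 0; the last was also 0 with the level filter, which leaves out dnai2a. For the mix, the count higher was 8, 5 with the level filter, which tests 42 genes, and 8 to 11 under the other alternatives, and the count lower was 17 to 21. The filter keeps a gene that reaches 7.02 on any of the 5 arrays, the mix included. Of the 5 higher genes, tuba2 and tuba7l reached it with the mix alone, so the filtered count is no check on increases. Counting the 74 probe sets one by one, an alternative chosen after seeing the data, gave 10 higher and 25 lower. The median with the mix lay between -0.83 and -0.17; with the level filter the median of all genes was -0.36, so -0.83 is to be read against that. Medians with the single compounds lay between -0.06 and 0.05. Levels near the bottom of the range, as in the axonemal class, bound any decrease that could be seen.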
